A study of Mus musculus with 12 samples.

Results

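The genes described here are 42 genes of DNA replication licensing and of the replication fork, chosen by name for their roles. The choice was made with earlier results of these data known. Each name was matched to the symbol column of the count table, and all 42 were found among its 34513 genes. Before a cell copies its DNA, the origin recognition complex (ORC), CDC6 and CDT1 load the MCM2-7 helicase onto origins as an inactive double ring, a step called licensing. The kinase CDC7-DBF4, MCM10, CDC45 and the GINS complex then turn that ring into a working helicase, and at the fork polymerases alpha, delta and epsilon, the sliding clamp PCNA with its loader RFC, the single-strand binding protein RPA, and the Okazaki fragment enzymes FEN1 and LIG1 copy the strands. Many of these genes are E2F targets whose RNA is raised around the start of S phase, so their levels in a culture are commonly read as a sign of proliferation.

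RNA came from cultures of 3 mouse melanocytic lines: MelanA, which is given as nontumorigenic, and the B16F0 and B16F10 melanoma lines. Every line was sampled with no treatment and with SX-682, an antagonist of the chemokine receptors CXCR1 and CXCR2, giving 6 groups of 2 libraries. The comparison addresses what the compound does to melanocytic cells cultured by themselves. The labels list the treatment of the controls as none, with no vehicle named, and give no genotype, passage, dose or exposure time. They do not say whether the 2 libraries of a group came from separate cultures, so the p-values measure only the spread between these libraries, which may be technical.

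Library totals ran from 48876982 to 85322092 counts, and a member had between 209 and 40252 counts in a library. All 7 melanocyte markers checked (Tyr, Tyrp1, Dct, Pmel, Mlana, Sox10 and Mitf) were over the floor of 3 counts in every group, with summed levels from 1344 to 1374 CPM (counts scaled to library size) in MelanA controls, 18580 to 18664 CPM in B16F0 controls and 24442 to 24471 CPM in B16F10 controls. Tyr, which encodes tyrosinase, was low in MelanA, at 0.892 and 0.760 CPM in the controls. Pmel was low there too, at 7.53 and 8.70 CPM, while Sox10, at 655 and 685 CPM, was the largest part of the sum. With SX-682 the melanocyte sum was 1346 to 1355 CPM in MelanA, 15770 to 15958 CPM in B16F0 and 14947 to 15188 CPM in B16F10, so it moved together with the replication genes in the B16 lines, and its part in their changes was not tested. The nearly level sum in MelanA held lower Tyr, Dct, Mlana and Mitf beside higher Tyrp1 and Sox10 in the treated libraries. The leukocyte markers summed to at most 0.266 CPM and the keratinocyte markers to at most 2.86 CPM in any library. The fibroblast markers (Col1a1, Col1a2 and Pdgfra) summed to between 50.3 and 51.6 CPM in MelanA, with and without SX-682, and to at most 16.6 CPM in the B16 lines. The endothelial markers summed to at most 2.15 CPM. All 3 fibroblast markers were also over the floor of 3 counts in every group. In MelanA, with and without SX-682, so were the 3 keratinocyte and 2 endothelial markers. Being over that floor therefore does not mark a cell type. Col1a1 was at 45.7 and 47.1 CPM in the MelanA controls, above Pmel.

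Most of the replication genes were lower in the SX-682 libraries than in the untreated controls of every line. In MelanA, 33 of the 42 genes were lower and 6 higher at an adjusted p under 0.05 in edgeR's quasi-likelihood test, in B16F0 35 were lower and 3 higher, and in B16F10 33 were lower and 4 higher. Of all 18338 genes tested, 24.7% were lower and 23.4% higher in MelanA, 25.0% lower and 25.1% higher in B16F0, and 25.3% lower and 25.5% higher in B16F10. Among genes over 3 counts in each library of the line, 26.3% were lower and 24.9% higher in MelanA. These shares were 29.2% and 28.1% in B16F0, and 30.7% and 30.4% in B16F10. The median log2 fold change of the 42 genes was -0.35 in MelanA, -0.37 in B16F0 and -0.48 in B16F10, where the median of all genes tested rounded to 0.00 in each line. The spread between libraries was low, with a biological coefficient of variation of 2.78% in the fit. In bulk cultures, fewer cells in S phase and less of these RNAs per cell cannot be told apart.

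A core of 29 genes, or 69.0% of the 42, was lower in every line, where 11.7% of all genes tested were, and 2 genes, Orc4 and Orc5, were higher in every line, where 11.3% were. Leaving out any single library gave between 27 and 29 genes lower in all 3 lines. A log2 fall of at least 0.5 in every line was reached by 6 genes (14.3%, against 1.97% of all genes tested), namely Cdc6, Orc1, Fen1, Gins3, Gins1 and Pole2. Both SX-682 libraries lay below both controls for 35 of the 42 genes in MelanA, 35 in B16F0 and 34 in B16F10, where 36.7%, 35% and 34.2% of all genes tested did so. Summed over the 42 genes, the level was 4014 and 4033 CPM in MelanA controls and 3172 CPM in both SX-682 libraries. In B16F0 the sum went from 4699 and 4676 to 3819 and 3837 CPM, and in B16F10 from 4718 and 4744 to 3326 and 3385 CPM.

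**Figure D1:**
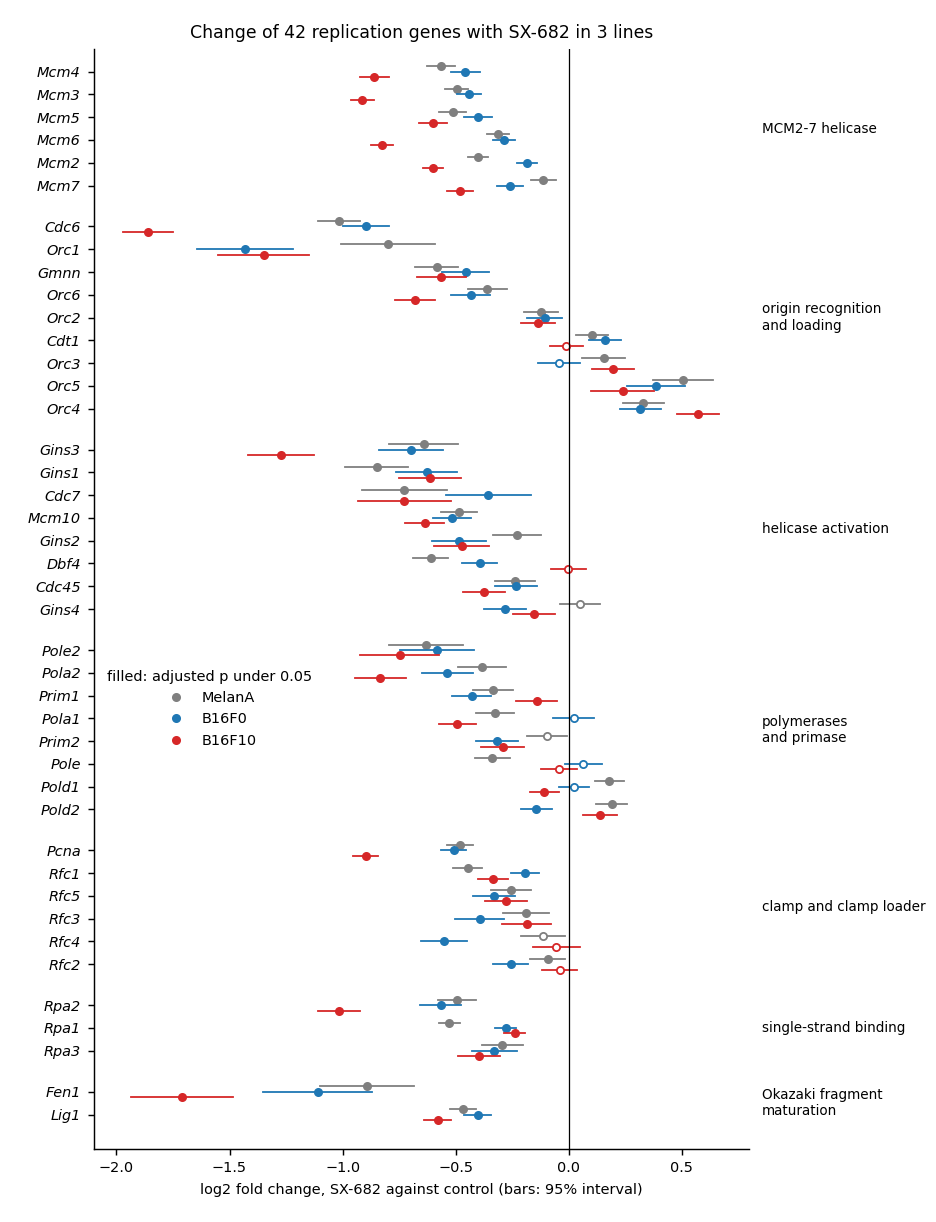
Log2 fold change with SX-682 of each of the 42 genes (rows, grouped by role and ordered by mean change) in MelanA (grey), B16F0 (blue) and B16F10 (red), with 95% intervals from the edgeR fit of 12 libraries. Filled points passed an adjusted p of 0.05. Most points lie left of 0, Cdc6, Orc1 and Fen1 farthest, while Orc4 and Orc5 lie right of 0 in all 3 lines.

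The licensing genes held the deepest fall by the mean over the 3 lines, that of Cdc6, and the only shared rises. Of the 9 genes for origin recognition and loading, Orc1, Orc2, Orc6, Cdc6 and Gmnn were lower in all 3 lines, Orc4 and Orc5 were higher in all 3, and Orc3 and Cdt1 were each higher in 2 lines. CDC6 is the ATPase that joins ORC at an origin and recruits the helicase. Its RNA was at 68.9 and 63.4 CPM in the control libraries and 33.3 and 32.2 CPM in the SX-682 libraries of MelanA. In B16F0 it was at 48.2 and 47.6 CPM in the control libraries and 25.1 and 26.5 CPM in the SX-682 libraries, and in B16F10 at 53.8 and 53.4 CPM in the control libraries and 14.8 and 14.7 CPM in the SX-682 libraries. In every line both treated libraries were far below both controls, and the treated B16F10 libraries held the lowest Cdc6 values of the series. The log2 fold change was -1.02 ± 0.046 (adjusted p = 1.82e-17) in MelanA, -0.90 ± 0.050 (adjusted p = 1.96e-15) in B16F0 and -1.86 ± 0.053 (adjusted p = 1.95e-22) in B16F10, with the standard error after ±.

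ORC1 is the ORC subunit that in mammalian cells is degraded after origins fire and made again before the next S phase. Orc1 stood at 8.51 and 9.19 CPM in the control libraries and 5.26 and 4.92 CPM in the SX-682 libraries of MelanA, at 13.0 and 13.4 against 4.26 and 5.63 CPM in B16F0, and at 17.5 and 16.9 against 6.68 and 6.84 CPM in B16F10. The groups did not overlap in any line, and all 6 treated libraries lay between 4.26 and 6.84 CPM although the controls of the lines stood apart. Its log2 fold change was -0.80 ± 0.10 (adjusted p = 8.58e-08) in MelanA, -1.43 ± 0.10 (adjusted p = 1.08e-12) in B16F0 and -1.35 ± 0.098 (adjusted p = 7.5e-13) in B16F10. Orc1 is a low-count gene with 271 to 1079 counts in a library, and 10.8% of its exonic bases are shared with Gm12743 on the opposite strand, which had 17 to 47 counts.

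Orc4 and Orc5, subunits of the same complex, moved the other way. Orc4 was at 39.0 and 37.4 CPM in the control libraries and 47.8 and 48.2 CPM in the SX-682 libraries of MelanA, at 46.9 and 46.3 against 58.6 and 57.4 CPM in B16F0, and at 39.1 and 42.3 against 58.9 and 62.2 CPM in B16F10. For Orc5 the controls and treated libraries stood at 11.9 and 12 against 17.3 and 16.6 CPM in MelanA, 19.7 and 21.1 against 27.4 and 25.9 CPM in B16F0, and 14.6 and 14.5 against 17.1 and 17.3 CPM in B16F10. For both genes all treated libraries were above the controls of their line. The log2 fold changes were 0.33 ± 0.044 (adjusted p = 1.96e-07) in MelanA, 0.32 ± 0.044 (adjusted p = 4.56e-07) in B16F0 and 0.57 ± 0.045 (adjusted p = 3.85e-12) in B16F10 for Orc4, and 0.51 ± 0.065 (adjusted p = 1.25e-07) in MelanA, 0.39 ± 0.063 (adjusted p = 5.1e-06) in B16F0 and 0.24 ± 0.068 (adjusted p = 0.00383) in B16F10 for Orc5. These 2 genes were singled out after their values were seen.

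Orc6, which completes the complex, changed by log2 values of -0.36, -0.43 and -0.68 in MelanA, B16F0 and B16F10. Gmnn, whose product geminin binds CDT1 and blocks a second round of loading, changed by -0.58, -0.45 and -0.56. Orc2 shares 29.8% of its exonic bases with Nif3l1 on the opposite strand. Nif3l1 had 1632 to 3329 counts in a library and Orc2 had 4083 to 7038. Orc2 changed little, by -0.12, -0.11 and -0.13 in the same order. Its call was lost in each line when single libraries were left out: in MelanA at -0.08 without control replicate 1 (adjusted p = 0.119) and -0.09 without SX-682 replicate 2 (adjusted p = 0.138), in B16F0 at -0.11 without control replicate 1 (adjusted p = 0.0593), -0.11 without control replicate 2 (adjusted p = 0.0564) and -0.07 without SX-682 replicate 2 (adjusted p = 0.193), and in B16F10 at -0.11 without control replicate 2 (adjusted p = 0.0506) and -0.11 without SX-682 replicate 1 (adjusted p = 0.052). Orc3 rose by 0.15 ± 0.046 (adjusted p = 0.00642) in MelanA and 0.20 ± 0.044 (adjusted p = 0.00041) in B16F10 and was at -0.04 in B16F0 (adjusted p = 0.457). Cdt1, the loading factor that geminin inhibits, rose by 0.10 ± 0.035 (adjusted p = 0.0141) in MelanA and 0.16 ± 0.034 (adjusted p = 0.000214) in B16F0 and was at -0.01 in B16F10 (adjusted p = 0.856). The MelanA call of Orc3 was lost at 0.13 without control replicate 2 (adjusted p = 0.059) and 0.14 without SX-682 replicate 1 (adjusted p = 0.0506), and that of Cdt1 at 0.07 without SX-682 replicate 1 (adjusted p = 0.17). Within the complex, levels per length changed their proportion. In B16F10, Orc1 went from 4.95 ± 0.135 to 1.94 ± 0.0326 CPM per kb (mean ± SD over 2 libraries) while Orc4 went from 5.46 ± 0.308 to 8.12 ± 0.313 CPM per kb.

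Promoter sequences of 6 of these genes are shown to print the E2F word in place: Cdc6, Orc1 and Gins3 had deep falls, Mcm6 holds the most matches, Cdt1 holds a match and was not lower in any line, and Orc5 holds none and rose. The E2F words searched were TTTGGCGC, TTTGCCGC, TTTCGCGC and TTTCCCGC, on both strands, in RefSeq windows of 250 bases before to 50 bases after each annotated start on GRCm38.p6. A window was given for 34 of the 42 genes, 43 windows in all, and none for Gins1, Gins2, Gins4, Prim2, Pole, Gmnn, Mcm4 and Rfc2. The sequences below are written 5′ to 3′ on the strand of the gene, with each E2F match in capitals.
Cdc6 (chr11:98907901-98908200, plus strand): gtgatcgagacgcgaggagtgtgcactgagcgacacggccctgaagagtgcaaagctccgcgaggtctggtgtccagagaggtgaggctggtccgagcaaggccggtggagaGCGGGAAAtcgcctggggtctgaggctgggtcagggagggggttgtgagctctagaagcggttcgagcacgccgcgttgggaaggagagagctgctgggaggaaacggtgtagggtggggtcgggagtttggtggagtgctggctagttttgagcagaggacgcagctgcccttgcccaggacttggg
Orc1 (chr4:108579204-108579503, plus strand): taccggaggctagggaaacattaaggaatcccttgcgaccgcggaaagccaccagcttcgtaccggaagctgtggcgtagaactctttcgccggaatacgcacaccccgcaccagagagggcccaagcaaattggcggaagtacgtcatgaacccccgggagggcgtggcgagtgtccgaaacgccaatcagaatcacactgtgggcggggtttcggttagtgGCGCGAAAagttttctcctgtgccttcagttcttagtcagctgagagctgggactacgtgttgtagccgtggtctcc
Gins3 (chr8:95633309-95633608, plus strand): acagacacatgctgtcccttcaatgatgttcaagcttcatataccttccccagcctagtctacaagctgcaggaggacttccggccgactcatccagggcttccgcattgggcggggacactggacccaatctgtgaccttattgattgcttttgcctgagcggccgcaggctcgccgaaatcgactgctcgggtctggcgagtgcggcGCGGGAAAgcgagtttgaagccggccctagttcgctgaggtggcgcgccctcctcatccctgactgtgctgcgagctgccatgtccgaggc
Mcm6 (chr1:128359656-128359955, minus strand): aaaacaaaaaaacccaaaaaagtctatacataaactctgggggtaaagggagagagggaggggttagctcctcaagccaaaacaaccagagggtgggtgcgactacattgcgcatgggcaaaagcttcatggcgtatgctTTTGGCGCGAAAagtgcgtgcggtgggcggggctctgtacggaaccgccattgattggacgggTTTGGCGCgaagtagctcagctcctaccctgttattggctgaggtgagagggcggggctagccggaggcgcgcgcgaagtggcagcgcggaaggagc
Cdt1 (chr8:122567765-122568064, plus strand): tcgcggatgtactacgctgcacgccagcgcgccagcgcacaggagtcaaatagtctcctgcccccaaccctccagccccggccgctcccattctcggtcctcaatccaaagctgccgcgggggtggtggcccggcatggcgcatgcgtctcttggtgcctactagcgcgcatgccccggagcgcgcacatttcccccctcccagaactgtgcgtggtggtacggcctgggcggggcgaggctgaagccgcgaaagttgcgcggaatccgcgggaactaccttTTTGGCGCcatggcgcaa
Orc5 (chr5:22550289-22550588, minus strand): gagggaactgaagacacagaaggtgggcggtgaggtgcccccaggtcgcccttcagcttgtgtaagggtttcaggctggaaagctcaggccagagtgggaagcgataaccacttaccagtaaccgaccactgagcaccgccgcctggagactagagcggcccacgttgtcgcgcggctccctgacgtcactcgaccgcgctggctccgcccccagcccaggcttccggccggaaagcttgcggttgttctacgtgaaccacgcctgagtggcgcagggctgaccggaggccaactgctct

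Cdc6, Orc1 and Gins3 each hold 1 match on the reverse strand, 138, 27 and 41 bases before the start, counted to the first base of the match. Mcm6 holds 3 matches, of which a forward and a reverse match overlap, and Cdt1 holds 1 match 32 bases after the start. Orc5 holds none, and neither did the 3 windows of Orc4 or the 2 windows of Fen1, whose fall was among the deepest. Over all members, 32.6% of the 43 windows held at least 1 E2F word, against 3.57% of the windows of genes tested and 2.26% of all 32851 windows. The CCAAT box (CCAAT) was in 53.5% of the windows of these genes, 37.9% of the windows of genes tested and 37.4% of all windows, and the GC box (GGGCGG) in 72.1%, 57.7% and 35.7%, both searched on both strands. TTTCCCGC can overlap a GC box on the other strand. The 14 genes with an E2F word had a median change, averaged over the lines, of -0.48 on the log2 scale, with a range from -1.26 for Cdc6 to 0.10 for Orc3. The 20 genes with a window and no E2F word had a median of -0.34, with a range from -1.24 for Fen1 to 0.41 for Orc4. A match is given as a description of the letters and not as a bound site, and these words were chosen with the changes known.

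**Figure D2:**
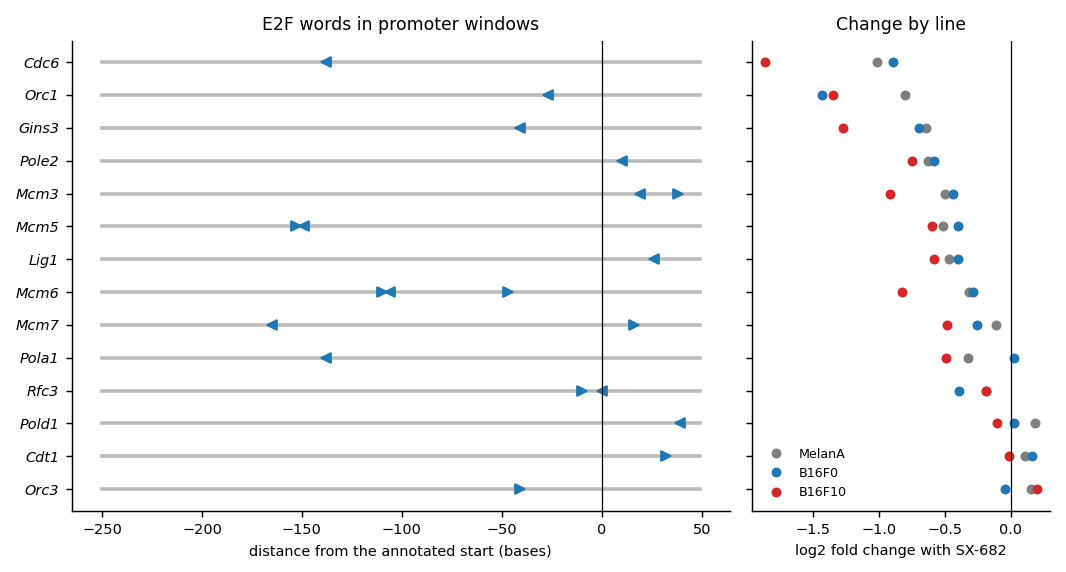
Left, position of each E2F word (triangles, pointing right for a forward match and left for a reverse match) relative to the annotated start in the promoter windows of the 14 genes that hold one. Right, log2 fold change of the same genes with SX-682 in MelanA (grey), B16F0 (blue) and B16F10 (red). Genes with a match run from Cdc6, with a mean change of -1.26, to Orc3, with a mean change of 0.10.

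All 6 subunits of the MCM2-7 helicase, the motor that unwinds DNA ahead of the fork, were lower in each line. In MelanA their log2 fold changes ran from -0.56 for Mcm4 to -0.11 for Mcm7, in B16F0 from -0.46 for Mcm4 to -0.18 for Mcm2, and in B16F10 from -0.91 for Mcm3 to -0.48 for Mcm7. Mcm7 in MelanA was the smallest of these falls, and its call was lost at -0.07 without control replicate 2 (adjusted p = 0.0722). Mcm4 was at 146 and 152 CPM in the control libraries and 100 and 101 CPM in the SX-682 libraries of MelanA, 141 and 138 against 103 and 100 CPM in B16F0, and 166 and 166 against 92.9 and 90.2 CPM in B16F10. The controls differed in the order B16F0, MelanA, B16F10 from lowest to highest, while the treated libraries of B16F10 were the lowest of all. Mcm4 changed by -0.56 ± 0.030 (adjusted p = 9.76e-16) in MelanA, -0.46 ± 0.031 (adjusted p = 1.98e-13) in B16F0 and -0.86 ± 0.031 (adjusted p = 5.38e-20) in B16F10.

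Mcm3 had its lowest values in the treated B16F10 libraries too, with 360 and 366 CPM in the control libraries and 256 and 259 CPM in the SX-682 libraries of MelanA, 310 and 299 against 221 and 228 CPM in B16F0, and 359 and 359 against 191 and 190 CPM in B16F10. Control values of MelanA and B16F10 were nearly alike, and no treated library reached any control of its line. The log2 fold change of Mcm3 was -0.50 ± 0.024 (adjusted p = 1.69e-16) in MelanA, -0.44 ± 0.025 (adjusted p = 3.58e-15) in B16F0 and -0.91 ± 0.025 (adjusted p = 8.99e-23) in B16F10. Mcm5 changed by -0.51, -0.40 and -0.60, Mcm6 by -0.31, -0.28 and -0.83 and Mcm2 by -0.40, -0.18 and -0.60 in MelanA, B16F0 and B16F10. The subunits of this complex assemble in equal number, and per kb of exonic length their untreated RNA levels in B16F10 were between 46.3 ± 0.145 CPM for Mcm4 and 95.7 ± 0.00754 CPM for Mcm3. With SX-682 the range in B16F10 was 25.5 ± 0.535 for Mcm4 to 58.3 ± 0.397 CPM per kb for Mcm2.

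Of the 8 genes that activate the loaded helicase, Cdc7, Mcm10, Cdc45, Gins1, Gins2 and Gins3 were lower in all 3 lines and none was higher in any. GINS is a ring of 4 subunits that joins CDC45 and MCM2-7 to form the active helicase. Gins3 was at 13.1 and 13.4 CPM in the control libraries and 8.34 and 8.63 CPM in the SX-682 libraries of MelanA, 26.4 and 25.4 against 15.4 and 16.6 CPM in B16F0, and 28.5 and 27.3 against 12.3 and 10.8 CPM in B16F10. The control level was higher in both B16 lines than in MelanA, and the treated groups lay below their controls without overlap. Gins3 changed by -0.64 ± 0.075 (adjusted p = 1.78e-08) in MelanA, -0.70 ± 0.069 (adjusted p = 6.96e-10) in B16F0 and -1.27 ± 0.071 (adjusted p = 2.03e-15) in B16F10.

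Gins1 was at 17.3 and 16.6 CPM in the control libraries and 9.55 and 9.27 CPM in the SX-682 libraries of MelanA, 23.4 and 23.8 against 15.7 and 14.8 CPM in B16F0, and 22.7 and 21.7 against 14.7 and 14.2 CPM in B16F10. Its groups did not overlap, and its fall was deepest in MelanA. The change of Gins1 was -0.85 ± 0.068 (adjusted p = 7.86e-12) in MelanA, -0.63 ± 0.065 (adjusted p = 2.01e-09) in B16F0 and -0.61 ± 0.066 (adjusted p = 3.41e-09) in B16F10. Gins2 changed by -0.23, -0.49 and -0.47 in MelanA, B16F0 and B16F10, but 67.3% of its exonic bases are shared with Gse1 on the opposite strand, and how reads there were assigned is not stated. Gse1 had 1180 to 3643 counts in a library and Gins2 had 878 to 3280. Gins4 fell in B16F0 (-0.28) and B16F10 (-0.15) and was at 0.05 in MelanA (adjusted p = 0.383). The B16F10 call of Gins4 was lost at -0.14 without control replicate 1 (adjusted p = 0.0522) and -0.12 without SX-682 replicate 2 (adjusted p = 0.0859).

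The 2 genes of the kinase that fires licensed origins differed in B16F10. Cdc7, the catalytic subunit, changed by -0.73, -0.36 and -0.73 in MelanA, B16F0 and B16F10. Dbf4, its regulatory subunit, fell in MelanA (-0.61) and B16F0 (-0.39), and in B16F10 its change was -0.0016 with a standard error of 0.038 (adjusted p = 1). Mcm10, a scaffold that helps the double ring part, changed by -0.49, -0.52 and -0.64, and Cdc45 by -0.24, -0.23 and -0.37.

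The polymerase and primase genes had the smallest share of members lower in all 3 lines, 3 of 8. These were Pola2 and Pole2, accessory subunits of polymerases alpha and epsilon, and Prim1, the primase subunit that makes the RNA primer. Pole2 was at 18.6 and 15.8 CPM in the control libraries and 11.1 and 11.1 CPM in the SX-682 libraries of MelanA, 21.8 and 24.4 against 15.8 and 15.0 CPM in B16F0, and 16.6 and 17.9 against 9.83 and 10.7 CPM in B16F10. Treated and control libraries were apart in each line, although the 2 controls of MelanA and of B16F0 also stood apart from each other. Its change was -0.63 ± 0.080 (adjusted p = 9.28e-08) in MelanA, -0.58 ± 0.079 (adjusted p = 3.04e-07) in B16F0 and -0.75 ± 0.086 (adjusted p = 1.02e-08) in B16F10.

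Pola2, the B subunit of the polymerase that starts each strand, was at 39.2 and 40.4 CPM in the control libraries and 31.1 and 29.9 CPM in the SX-682 libraries of MelanA, 37.8 and 36.0 against 25.0 and 25.9 CPM in B16F0, and 47.5 and 44.0 against 24.5 and 26.9 CPM in B16F10. It was lower with SX-682 in all libraries of each line. The change of Pola2 was -0.38 ± 0.052 (adjusted p = 2.63e-07) in MelanA, -0.54 ± 0.055 (adjusted p = 1.5e-09) in B16F0 and -0.83 ± 0.054 (adjusted p = 6.67e-14) in B16F10. Pola1, the catalytic subunit of the same enzyme, fell in MelanA (-0.33) and B16F10 (-0.49) and was at 0.02 in B16F0 (adjusted p = 0.728). Prim1 changed by -0.33, -0.43 and -0.14, with the B16F10 call lost at -0.09 without control replicate 2 (adjusted p = 0.159) and -0.12 without SX-682 replicate 1 (adjusted p = 0.0839). Prim2, the large primase subunit, fell in B16F0 (-0.32) and B16F10 (-0.29) and was at -0.10 in MelanA (adjusted p = 0.0629). Pole, the catalytic subunit of the leading-strand polymerase, fell in MelanA only by the test (-0.34), with 0.06 in B16F0 (adjusted p = 0.199) and -0.04 in B16F10 (adjusted p = 0.37).

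Pold1 and Pold2, the catalytic and a regulatory subunit of the lagging-strand polymerase delta, were the only members called in opposite directions in different lines. Pold1 was at 83.0 and 87.3 CPM in the control libraries and 97.2 and 95.6 CPM in the SX-682 libraries of MelanA, 115 and 113 against 117 and 115 CPM in B16F0, and 123 and 127 against 115 and 117 CPM in B16F10. It was higher with SX-682 in MelanA, nearly level in B16F0 and lower in B16F10, with changes of 0.18 ± 0.032 (adjusted p = 2.06e-05) in MelanA, 0.02 ± 0.032 (adjusted p = 0.581) in B16F0 and -0.11 ± 0.032 (adjusted p = 0.00508) in B16F10. For Pold2 the values were 73.8 and 76.4 against 86.1 and 85.3 CPM in MelanA, 107 and 108 against 96.1 and 98.6 CPM in B16F0, and 59.2 and 62.2 against 66.4 and 67.2 CPM in B16F10. Pold2 was thus higher with SX-682 in MelanA and B16F10 and lower in B16F0, with changes of 0.19 ± 0.033 (adjusted p = 1.78e-05) in MelanA, -0.14 ± 0.034 (adjusted p = 0.00063) in B16F0 and 0.14 ± 0.036 (adjusted p = 0.00168) in B16F10. The B16F10 call of Pold1 was lost at -0.09 without control replicate 2 (adjusted p = 0.0612), and that of Pold2 at 0.10 without control replicate 1 (adjusted p = 0.0559).

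PCNA is the ring that tethers polymerases to DNA, and Pcna was the most abundant of the 42 genes per length in each line. It was at 261 and 249 CPM in the control libraries and 183 and 182 CPM in the SX-682 libraries of MelanA, 473 and 453 against 327 and 324 CPM in B16F0, and 424 and 428 against 223 and 234 CPM in B16F10. The treated B16F10 libraries were below even the lower MelanA control, while the treated B16F0 libraries stayed above all MelanA libraries. Pcna changed by -0.48 ± 0.028 (adjusted p = 6.74e-15) in MelanA, -0.51 ± 0.027 (adjusted p = 1.03e-15) in B16F0 and -0.90 ± 0.028 (adjusted p = 1.53e-21) in B16F10. A pseudogene, Pcna-ps2, had 60 to 166 counts in a library where Pcna had 13033 to 35452.

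The clamp loader RFC opens the PCNA ring and places it on primed DNA. Rfc1, its large subunit, was at 121 and 126 CPM in the control libraries and 89.3 and 92.1 CPM in the SX-682 libraries of MelanA, 156 and 158 against 139 and 136 CPM in B16F0, and 131 and 132 against 102 and 107 CPM in B16F10. It was lower in the treated libraries of each line, with changes of -0.45 ± 0.031 (adjusted p = 4.66e-13) in MelanA, -0.19 ± 0.031 (adjusted p = 4.46e-06) in B16F0 and -0.33 ± 0.032 (adjusted p = 2.76e-10) in B16F10. Among the small subunits, Rfc5 changed by -0.26, -0.33 and -0.28 and Rfc3 by -0.19, -0.39 and -0.19 in MelanA, B16F0 and B16F10, and the calls of Rfc3 were lost at -0.14 without SX-682 replicate 1 (adjusted p = 0.0733) in MelanA and -0.15 without SX-682 replicate 2 (adjusted p = 0.0608) in B16F10. Rfc4 fell in B16F0 (-0.55) and was at -0.11 in MelanA (adjusted p = 0.0527) and -0.05 in B16F10 (adjusted p = 0.401). Rfc2 fell in B16F0 (-0.26). In MelanA the change of Rfc2 was -0.09 (adjusted p = 0.0417), which did not pass with DESeq2, with any of the other scalings or without most of the single libraries (between -0.10 without MelanA control replicate 2, adjusted p = 0.082, and -0.03 without MelanA SX-682 replicate 1, adjusted p = 0.708), and in B16F10 it was -0.04 (adjusted p = 0.401).

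RPA is the trimer that coats single-stranded DNA at the fork, and all 3 of its genes were lower in all 3 lines. Rpa2 was at 72.5 and 73.1 CPM in the control libraries and 51.1 and 52.3 CPM in the SX-682 libraries of MelanA, 54.5 and 57.8 against 38.2 and 37.6 CPM in B16F0, and 57.1 and 53.7 against 26.8 and 27.9 CPM in B16F10. Starting from control values that overlapped between the B16 lines, the treated libraries were lower in B16F10 than in B16F0. Rpa2 changed by -0.49 ± 0.041 (adjusted p = 1.6e-11) in MelanA, -0.57 ± 0.044 (adjusted p = 4.61e-12) in B16F0 and -1.02 ± 0.046 (adjusted p = 1.26e-17) in B16F10.

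Rpa1, the largest subunit of the trimer, was at 283 and 286 CPM in the control libraries and 197 and 198 CPM in the SX-682 libraries of MelanA, 417 and 418 against 345 and 343 CPM in B16F0, and 378 and 386 against 321 and 326 CPM in B16F10. It was lower in all treated libraries, and most so in MelanA. The change of Rpa1 was -0.53 ± 0.023 (adjusted p = 1.13e-17) in MelanA, -0.28 ± 0.023 (adjusted p = 1.46e-11) in B16F0 and -0.24 ± 0.023 (adjusted p = 2.97e-10) in B16F10, and that of Rpa3, the small subunit, was -0.29, -0.33 and -0.40 in the same order.

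FEN1 removes the flap at the end of each Okazaki fragment and LIG1 seals the nick. Fen1 was at 15.3 and 14.9 CPM in the control libraries and 7.60 and 8.61 CPM in the SX-682 libraries of MelanA, 10.3 and 10.7 against 5.30 and 4.34 CPM in B16F0, and 19.3 and 18.1 against 6.66 and 4.75 CPM in B16F10. The treated libraries lay well below their controls in each line, with changes of -0.89 ± 0.10 (adjusted p = 1.12e-08) in MelanA, -1.11 ± 0.12 (adjusted p = 2.69e-09) in B16F0 and -1.71 ± 0.11 (adjusted p = 4.53e-14) in B16F10. The level of Fen1 is uncertain, since 84.2% of its exonic bases are shared with other annotated genes, mainly Gm10143 on the opposite strand (78.8%), and Fen1 had 209 to 1350 counts in a library while Gm10143 had 1 to 13. How reads in the shared bases were assigned is not stated.

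Lig1 was at 172 and 176 CPM in the control libraries and 127 and 125 CPM in the SX-682 libraries of MelanA, 173 and 179 against 133 and 133 CPM in B16F0, and 171 and 175 against 115 and 117 CPM in B16F10. Its controls were at nearly the same level in all 3 lines, and its treated libraries were lower in each. Lig1 changed by -0.47 ± 0.028 (adjusted p = 1.7e-14) in MelanA, -0.40 ± 0.029 (adjusted p = 7.4e-13) in B16F0 and -0.58 ± 0.029 (adjusted p = 1.64e-16) in B16F10.

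**Figure D3:**
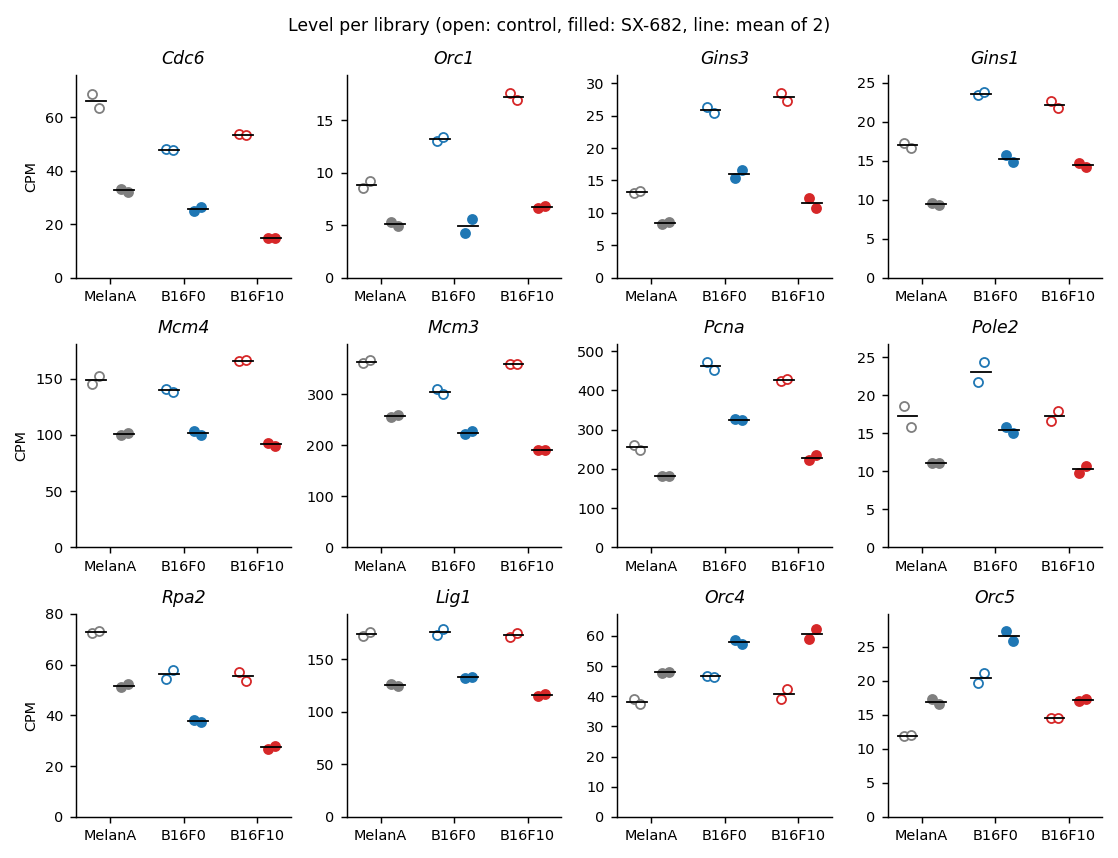
Level in CPM (vertical axes from 0) of 12 of the genes in each of the 12 libraries, by line, with open circles for controls, filled circles for SX-682 and a line at the mean of 2. In the first 10 panels both treated libraries lie below both controls in each line, and in the Orc4 and Orc5 panels they lie above.

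The lines did not respond alike, and the difference between their changes was tested directly. Between B16F10 and B16F0, 19 of the 42 genes had a lower log2 fold change in B16F10 and 8 a higher one, where 14.9% and 15.3% of all genes tested did so. The 19 and 8 genes were 45.2% and 19.0% of the 42, beside 19.3% and 19.9% of genes over 3 counts in every library. The share with a higher change was thus near that of those genes. All 6 MCM2-7 genes were among the 19, with differences from -0.54 for Mcm6 to -0.20 for Mcm5. The difference was -0.97 ± 0.073 for Cdc6 (adjusted p = 1.69e-11), -0.58 ± 0.10 for Gins3 (adjusted p = 3.83e-05) and -0.39 ± 0.039 for Pcna (adjusted p = 4.53e-09). In percent, Cdc6 was lower by 72.5% in B16F10 and by 46.2% in B16F0. Among the 8 genes on the other side, Rfc4 (0.50 ± 0.071, adjusted p = 1.95e-06) and Dbf4 (0.39 ± 0.054, adjusted p = 1.32e-06) fell in B16F0 and not detectably in B16F10. For Orc1 the difference was 0.08, with a 95% interval from -0.21 to 0.38, which holds 0.

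Between the mean of the B16 lines and MelanA, 18 genes had a lower log2 fold change in the B16 mean and 5 a higher one, against 17.1% and 18.7% of all genes tested. The 18 and 5 genes were 42.9% and 11.9% of the 42, beside 22.4% and 23.7% of genes over 3 counts in every library. A lower mean need not hold in both lines: Cdc6 changed by -1.02 in MelanA, -0.90 in B16F0 and -1.86 in B16F10. Orc1 (-0.59 ± 0.13, adjusted p = 0.000337), Fen1 (-0.52 ± 0.13, adjusted p = 0.00208) and Cdc6 (-0.36 ± 0.059, adjusted p = 9.32e-06) had the lowest differences. Dbf4 (0.41), Pole (0.35), Rpa1 (0.27), Gins1 (0.23) and Rfc1 (0.18) had the more negative change in MelanA, although the call of Gins1 was lost without some single libraries. Over the 42 genes, Pearson's r between the changes of 2 lines was 0.79 for MelanA and B16F0, 0.82 for MelanA and B16F10 and 0.81 for B16F0 and B16F10, beside 0.26, 0.26 and 0.30 over all genes tested. This is a description over genes, in which the genes with the deepest falls weigh most, and the genes of a line share their 4 libraries. The r over all genes tested includes genes with few counts, whose changes are noisier. In MelanA all genes tested changed by -9.05 to 6.88, and genes over 3 counts in each library of the line by -3.37 to 3.89. No r was computed over genes with counts like those of the members.

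**Figure D4:**
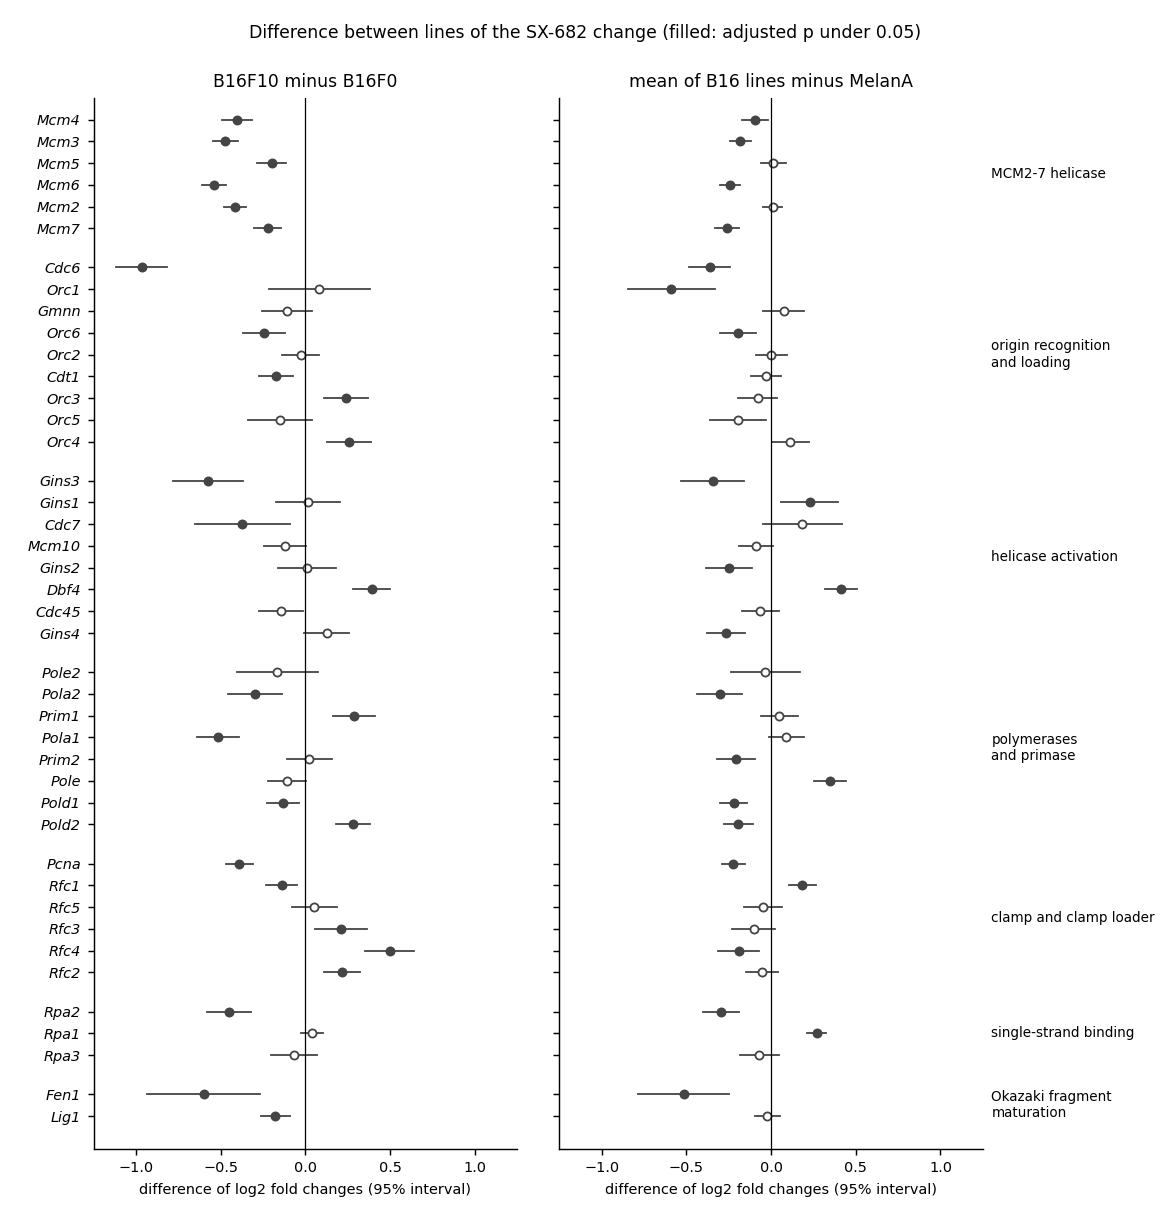
Difference between lines of the log2 fold change with SX-682 for each of the 42 genes, B16F10 minus B16F0 on the left and the mean of the B16 lines minus MelanA on the right, with 95% intervals. Filled points passed an adjusted p of 0.05. On the left all 6 MCM2-7 genes lie below 0, with Cdc6 farthest at -0.97.

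Untreated, the lines differed in most of these genes, as in most genes tested, and in no single direction. The share of the 42 genes called in either direction was 81.0% between B16F0 and MelanA, 71.4% between B16F10 and MelanA and 69.0% between the B16 lines, beside 75.9%, 74.2% and 62.0% of all genes tested. These comparisons use the control libraries that also enter the changes above, so the 2 sets of values are not independent and are given side by side. Against MelanA, 22 of the 42 genes were higher and 12 lower in B16F0, where 35.3% and 40.6% of all genes tested were, and 21 were higher and 9 lower in B16F10, where 33.4% and 40.8% were. Against B16F0, B16F10 had 13 genes higher and 16 lower, with 30.8% and 31.2% of all genes tested. All genes tested include genes nearly absent from a line, which no member was. Of the 14124 genes over 3 counts in each control library, 40.1% were higher and 37.3% lower in B16F0 than in MelanA. For B16F10 against MelanA these shares were 39.5% and 35.8%, and for B16F10 against B16F0 36.1% and 33.1%. With library totals alone in place of TMM scaling, all genes moved by a median of -0.19 on the log2 scale between B16F10 and MelanA. The counts among the 42 genes then became 12 higher and 21 lower for B16F10 against MelanA. They became 20 higher and 17 lower for B16F0 against MelanA, and 9 higher and 24 lower for B16F10 against B16F0. The direction of small untreated differences therefore rests on the scaling, and under library totals Mcm4, Mcm5, Rfc1 and Rfc5 changed sign between B16F10 and MelanA.

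The largest untreated differences went beyond that shift. Gins3, at the control values given above, was higher than in MelanA by a log2 value of 0.97 ± 0.067 (adjusted p = 7.92e-14) in B16F0 and 1.07 ± 0.067 (adjusted p = 7.82e-15) in B16F10. Pcna was higher by 0.86 ± 0.027 (adjusted p = 3.08e-22) in B16F0, and Orc1 by 0.96 ± 0.092 (adjusted p = 1.17e-10) in B16F10. Gmnn was at 54.6 and 54.5 CPM in MelanA, 39.2 and 38.5 in B16F0 and 34.8 and 35.4 in B16F10 controls, with all B16 libraries below both MelanA libraries and a difference of -0.64 ± 0.047 (adjusted p = 4.24e-13) for B16F10. Gins2, subject to its shared exons, was at 37.7 and 36.1, 26.0 and 25.7 and 25.6 and 24.2 CPM, and was also lower in both B16 lines, with differences of -0.51 ± 0.053 (adjusted p = 5.25e-10) and -0.57 ± 0.054 (adjusted p = 9.76e-11). Fen1, subject to the same limit, was lower in B16F0 than in MelanA, with a difference of -0.52 ± 0.099 (adjusted p = 2.77e-05).

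Between the B16 lines, Pola1 differed most. It was at 79.4 and 75.3 CPM in MelanA, 54.4 and 59.6 in B16F0 and 118 and 117 in B16F10 controls, a difference of 1.04 ± 0.041 (adjusted p = 2.25e-19) between B16F10 and B16F0. Fen1 was higher in B16F10 by 0.83 ± 0.10 (adjusted p = 1.86e-08). Pold2 was lower in B16F10 than in B16F0, with a difference of -0.82 ± 0.035 (adjusted p = 8.8e-19) from the control values given above. Prim1, at 50.3 and 49.9, 76.0 and 78.9 and 48.1 and 51.7 CPM in MelanA, B16F0 and B16F10, was lower in B16F10 than in B16F0, with a difference of -0.63 ± 0.042 (adjusted p = 4.87e-14), and did not differ detectably between B16F10 and MelanA (-0.0049, 95% interval -0.09 to 0.08).

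Per length, the untreated levels spanned a wide range within the pathway. Pcna was at 106 ± 3.57 CPM per kb in MelanA, 193 ± 5.93 in B16F0 and 177 ± 1.27 in B16F10 (mean ± SD, n = 2). The MCM2-7 genes ranged from 29.7 ± 1.06 for Mcm7 to 96.8 ± 1.05 CPM per kb for Mcm3 in MelanA. At the low end, Orc5 stood at 1.93 ± 0.0107 and Orc1 at 2.54 ± 0.138 CPM per kb in MelanA, so the ORC genes ran from these to 20.5 ± 0.661 CPM per kb for Orc6. Lig1 was at 40.8 ± 0.723, 41.2 ± 1.03 and 40.6 ± 0.713 CPM per kb in MelanA, B16F0 and B16F10, with no difference detected (adjusted p = 0.645, 0.821 and 0.529).

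**Figure D5:**
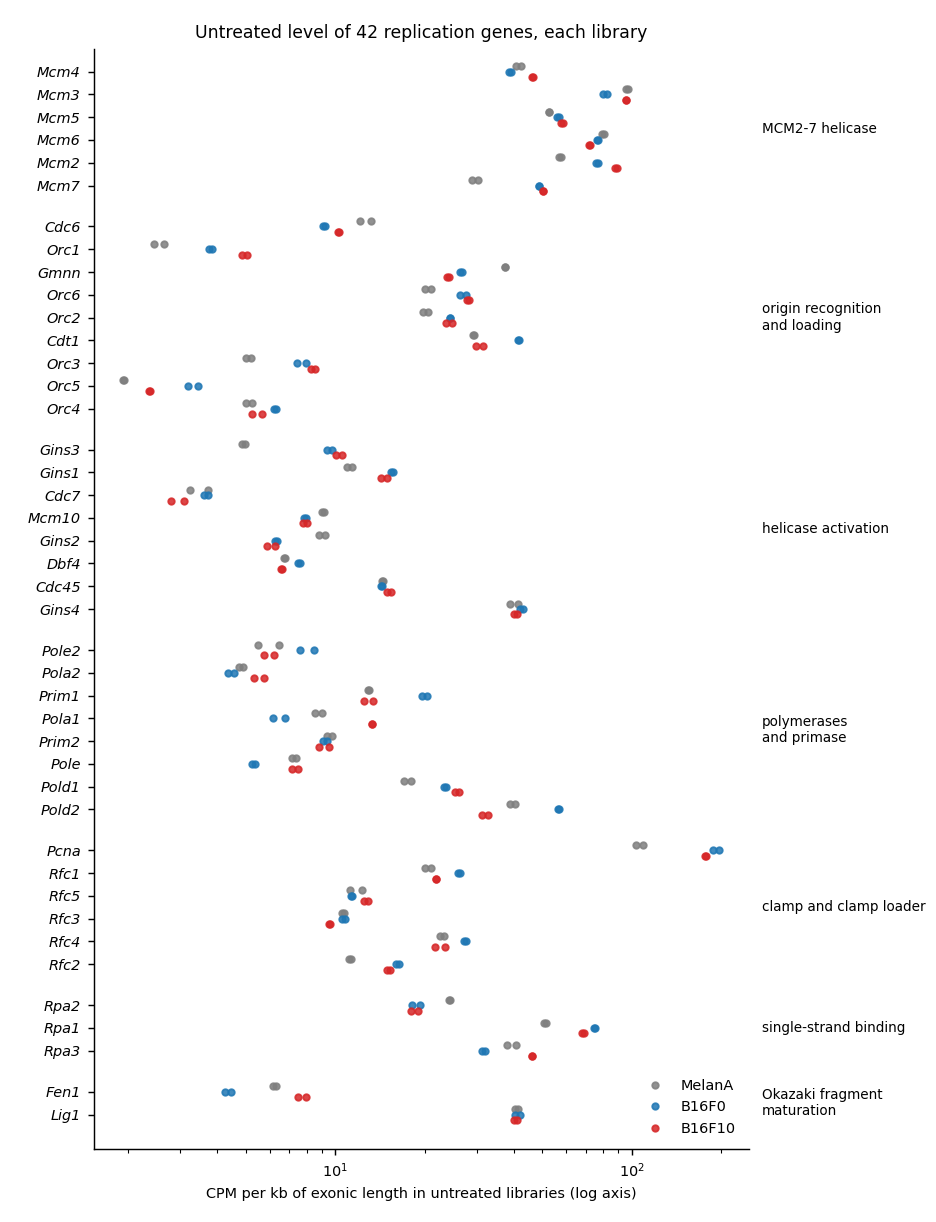
Untreated level of each of the 42 genes in CPM per kb of exonic length (log axis), with 1 point for each of the 2 control libraries of MelanA (grey), B16F0 (blue) and B16F10 (red). Pcna is highest in each line and Orc5, Orc1 and Cdc7 are among the lowest, and no line is highest throughout.

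A wider list of 45 other replication genes (polymerase accessory subunits, fork protection, chromatin assembly, licensing control and topoisomerases) also fell in most members with SX-682. In MelanA 35 were lower and 3 higher, in B16F0 27 were lower and 6 higher, and in B16F10 33 were lower and 7 higher, and 25 (55.6%) were lower in all 3 lines. Of all genes tested, 24.7% were lower and 23.4% higher in MelanA, and 25.0% and 25.1% in B16F0. In B16F10 the shares were 25.3% and 25.5%, and 11.7% were lower in all 3 lines. Dna2, the nuclease that trims long flaps, had the lowest mean change, at -1.24, -1.37 and -1.90 in MelanA, B16F0 and B16F10, and Skp2, the ubiquitin ligase subunit that acts on licensing and cell cycle proteins, the next, at -1.04, -0.71 and -1.23. Pold4, the smallest subunit of polymerase delta, was higher in all 3 lines, at 0.66, 0.81 and 1.10. In the wider list, between the mean of the B16 lines and MelanA, 6 of its genes had a lower change in the B16 mean and 21 a higher one, with a median difference of 0.13, where the median of the 42 genes was -0.08. These 6 and 21 genes were 13.3% and 46.7% of the list, beside 17.1% and 18.7% of all genes tested. Between B16F10 and B16F0, 18 of the wider list had a lower change in B16F10 and 6 a higher one, with a median of -0.10 beside -0.14 for the 42 genes. The 18 and 6 genes were 40% and 13.3% of the list, beside 14.9% and 15.3% of all genes tested. Lrwd1, a protein that binds ORC, was at 0.14 in MelanA, 0.10 in B16F0 (adjusted p = 0.113) and 0.55 in B16F10, of which the first and last passed the test.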

How the data were processed

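RNA-seq of 12 libraries, 2 for each of MelanA, B16F0 and B16F10 without treatment and with SX-682, was used. The authors deposited read counts per gene, without normalization, for 34513 genes with Ensembl identifiers and coordinates. The submitters' processing notes name cutadapt, STAR, DESeq2 and mm10. The counting program and its use of strand, and the SX-682 concentration, vehicle and exposure time of the RNA cultures, are not given in the sources used here, which state such conditions for SX-682 in a staining assay of these lines. A read that lies in exons of 2 genes could be dropped or given to either: 26 of the 42 genes share no exonic base with another gene in GENCODE M21, 13 share 0.7% to 15.1%, and Orc2 (29.8%, with Nif3l1), Gins2 and Fen1 share more.

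From the deposited counts, a quasi-likelihood model was fitted in edgeR 4.0.16 (R 4.3.3) with 1 mean for each of 6 groups, TMM scaling and filterByExpr, which kept 18338 genes and all 42 members. P-values were adjusted by Benjamini-Hochberg over all 18338 genes, with a threshold of 0.05, in two-sided tests. Values in CPM are after TMM scaling, and CPM per kb divides by the deposited exonic length. A standard error is the log2 fold change divided by the root of F, with 6 residual and 21.9 prior degrees of freedom. Differences between lines were tested as contrasts in the same fit. An exact permutation of 2 against 2 libraries cannot go below p = 0.333. The 2 libraries of each group were counted as separate samples. Their chi-square statistic averaged 2.87 to 5.25 per gene, above sampling noise. This cannot tell separate cultures from repeated preparations of a single culture. Intervals of fold changes come from this fit and include the spread between libraries, while the floor of 3 counts covers counting error only, as no molecular identifiers are described. The scripts were tested on simulated data. Alternatives were DESeq2 1.42.0, other scalings, filters, thresholds and fits, the replicate number as a block, and each library left out. The members, the role groups, the other replication genes and the promoter words were chosen with earlier results of these data known. Values in every library were given for the 2 genes of each role group with the largest mean change, for genes called in opposite directions, and for the 2 largest called rises and falls between untreated lines, with other genes summarised. Other replication genes were named for the 2 largest mean rises and falls.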

Additional observations from a re-analysis of the deposited data

Results flagged for a closer look

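Genes are listed here because the change with SX-682 differed between lines in a direct test of the difference in edgeR's quasi-likelihood model, at an adjusted p under 0.05 over all 18338 genes. Values are differences of log2 fold changes. Between B16F10 and B16F0, the change was lower in B16F10 for Cdc6 (-0.97), Fen1 (-0.60), Gins3 (-0.58), Mcm6 (-0.54), Pola1 (-0.51), Mcm3 (-0.47) and Rpa2 (-0.45). The same held, with smaller differences, for Mcm2 (-0.42), Mcm4 (-0.40), Pcna (-0.39), Cdc7 (-0.37), Pola2 (-0.29), Orc6 (-0.25) and Mcm7 (-0.22). The smallest differences in this direction were those of Mcm5 (-0.20), Lig1 (-0.18), Cdt1 (-0.17), Rfc1 (-0.14) and Pold1 (-0.13). The change was higher in B16F10 than in B16F0 for Rfc4 (0.50), Dbf4 (0.39), Prim1 (0.29), Pold2 (0.28), Orc4 (0.26), Orc3 (0.24), Rfc2 (0.22) and Rfc3 (0.21).

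Between the mean of B16F0 and B16F10 and MelanA, the change was lower in the B16 mean for Orc1 (-0.59), Fen1 (-0.52), Cdc6 (-0.36), Gins3 (-0.34), Pola2 (-0.30) and Rpa2 (-0.30). It was also lower for Gins4 (-0.27), Mcm7 (-0.26), Gins2 (-0.25), Mcm6 (-0.24), Pcna (-0.22) and Pold1 (-0.22), and by less for Prim2 (-0.21), Orc6 (-0.20), Pold2 (-0.19), Rfc4 (-0.19), Mcm3 (-0.18) and Mcm4 (-0.095). A lower mean did not always hold in both B16 lines. In B16F0 the falls of Cdc6 (-0.90), Mcm6 (-0.28), Mcm3 (-0.44) and Mcm4 (-0.46) were smaller than in MelanA (-1.02, -0.31, -0.50 and -0.56). For Rfc4 the fall in B16F10 (-0.05) was smaller than in MelanA (-0.11). The differences of a single B16 line from MelanA were not tested. The change was higher in the B16 lines, where these genes changed less than in MelanA, for Dbf4 (0.41), Pole (0.35), Rpa1 (0.27), Gins1 (0.23) and Rfc1 (0.18). Some of these calls were lost when a single library was left out, here given with the range of values and each library concerned. Between the B16 lines and MelanA they were Gins1 (0.19 to 0.24, without MelanA control replicate 1, MelanA SX-682 replicate 1, MelanA SX-682 replicate 2, B16F0 control replicate 1, B16F0 SX-682 replicate 1, B16F10 control replicate 2 or B16F10 SX-682 replicate 1) and Mcm4 (-0.12 to -0.07, without MelanA control replicate 1, MelanA SX-682 replicate 1, MelanA SX-682 replicate 2, B16F0 control replicate 1 or B16F10 SX-682 replicate 2). Between B16F10 and B16F0 they were Cdc7 (-0.40 to -0.20, without B16F0 control replicate 1, B16F0 control replicate 2, B16F0 SX-682 replicate 1, B16F0 SX-682 replicate 2, B16F10 control replicate 1 or B16F10 SX-682 replicate 2), Cdt1 (-0.14 to -0.13, without B16F10 control replicate 2 or B16F10 SX-682 replicate 1), Fen1 (-0.44 to -0.38, without B16F0 SX-682 replicate 1 or B16F10 SX-682 replicate 2). In the same comparison the calls of Pold1 (-0.13 to -0.12, without B16F0 control replicate 2, B16F0 SX-682 replicate 1, B16F10 control replicate 2 or B16F10 SX-682 replicate 1), Rfc1 (-0.13 to -0.12, without B16F0 control replicate 1 or B16F10 SX-682 replicate 1) and Rfc3 (0.13 to 0.23, without B16F0 control replicate 1, B16F0 control replicate 2, B16F0 SX-682 replicate 1, B16F10 control replicate 1, B16F10 control replicate 2 or B16F10 SX-682 replicate 1) were lost as well. The values of Fen1 and Gins2 rest on genes that share most of their exonic bases with a gene on the other strand, and the part of this in the differences was not tested. Rfc4 shares 12.7% of its exonic bases with Eif4a2 on the other strand, and the part of that was not tested either.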

How the results depend on the processing

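Counts of called genes with SX-682 moved by at most 1.5 times, and their directions were the same, under DESeq2, RLE, upper-quartile and library-total scaling, both other filters, separate fits, a threshold of 0.01 and each library left out. A further limit of 0.5 on the size of the log2 fold change left 12 lower and 1 higher in MelanA, 11 and 0 in B16F0, 19 and 1 in B16F10, and 6 and 0 in all 3 lines. It left 2 lower and 10 higher for untreated B16F0 against MelanA, 2 and 8 for B16F10 against MelanA, 2 and 3 for B16F10 against B16F0, and 2 and 5 differences of change between the B16 lines and MelanA and between B16F10 and B16F0. Of all genes tested, 8.0%, 9.2% and 10.1% were lower by that size in MelanA, B16F0 and B16F10, and 1.97% in all 3 lines. Between untreated lines, in the order above, 29.8%, 30.1% and 18.7% were lower by that size. Of genes over 3 counts in each control library, 23.4%, 21.8% and 16.9% were. For the differences of change, 5.38% and 3.84% of all genes tested were lower by that size. The shares of rises of that size were not counted. Library totals alone gave 21 lower and 12 higher for untreated B16F10 against MelanA, with values below 0 for Mcm4 (-0.029), Mcm5 (-0.0355), Rfc1 (-0.096) and Rfc5 (-0.078), since that scaling moved all genes there by a median of -0.19.

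The replicate numbers are shared between groups, but deviations of same-numbered libraries correlated at -0.12 to 0.027, so the numbers were not read as pairs. The lowest value was that of MelanA control and MelanA SX-682. A pairing of differently numbered libraries was not tested. A replicate block gave 34 genes lower in MelanA, 35 in B16F0 and 33 in B16F10, changed only the call of Prim2 in MelanA (-0.097, adjusted p = 0.046 in edgeR) among the changes with SX-682, and changed no other call. Without single libraries, the genes lower in all 3 lines numbered 27 to 29, those lower in B16F10 30 to 33, those higher in MelanA 4 to 6, and the differences between B16F10 and B16F0 23 to 27. The calls with SX-682 that were lost without a single library were those of small changes in Rfc2, Orc2, Orc3, Cdt1, Mcm7, Rfc3, Prim1, Gins4, Pold1 and Pold2.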
